A study of Caenorhabditis elegans with 2 samples.

Results

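The histone demethylase and CoREST genes of Caenorhabditis elegans were taken as a list of 10 genes out of 19973 nuclear protein-coding genes in the Ensembl release 115 annotation of WBcel235, the assembly also called ce11. The list holds rbr-2 itself, the LSD1-family genes spr-5, lsd-1 and amx-1, the CoREST genes rcor-1 and spr-1, and the Jumonji demethylase genes utx-1, jmjd-3.1, jmjd-2 and jmjd-1.2. A region of enrichment was assigned to a gene when its summit, the position of highest signal, lay inside the gene or within 2 kb upstream of any of its annotated transcript 5′ ends. One summit could be assigned to more than one gene.

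The occupancy data are ChIP-seq, in which protein-bound DNA is immunoprecipitated and sequenced, of tagged RBR-2 from whole hermaphrodites of strain OP195. This transgenic line stably expresses RBR-2 with GFP-FLAG at its C terminus, and the labels describe an insertion that targets rbr-2. Animals were L4 larvae taken 56 hours after synchronisation as starved L1 larvae obtained by bleaching. The labels gave 1 group of 2 biological replicates with no untagged, untreated or other group, so no conditions were compared and no test was made.

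The 4 lists used were the regions of each replicate, those of the pooled replicates, and an optimal set that passed the irreproducible discovery rate procedure and was the same as the 3442 strongest pooled regions. They held 26742, 28724, 30000 and 3442 regions. Each ends at its own weakest signal, and what set that limit in the replicate and pooled lists is not stated. A gene without a region therefore has no measured level of 0. The pooled list is labelled as peaks and background, so its weaker regions need not be sites of enrichment. Signal is the authors' strength of a region within its own list, and rank 1 is the strongest region of that list. Sequencing depth is unknown, the control reads were not analysed here, and the labels name the antibody once as anti-GFP and once as rbr-2. In whole animals, binding in fewer cells and weaker binding per cell cannot be told apart.

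In worms the KDM5 family is represented by RBR-2, and its enzymes remove methyl groups from H3K4, where methylation marks active promoters. Some amine oxidases of the LSD1 family also demethylate H3K4 and work with CoREST, a corepressor that tethers them to nucleosomes and to histone deacetylases. The Jumonji enzymes UTX-1 and JMJD-3.1 act on H3K27, JMJD-2 on H3K9 and H3K36, and JMJD-1.2, of the PHF8 family, on H3K9 and H3K27. In worms several of these genes were found through presenilin suppression, germline chromatin inheritance, lifespan or mitochondrial stress.

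The reference sequence at the strongest optimal summit of 5 members is given first. Those of lsd-1 and rcor-1, which also had an optimal region, are not printed. Each printed sequence is 200 bases of the forward strand of WBcel235 (ce11) from RefSeq, centred on the summit. None of the summits printed lay in an annotated gene. Capitals mark the letters of the 3 searched motifs, on either strand: CCGCCC, which the ARID domain of mammalian KDM5A recognises, GAGAGAGA, and TTTTTTTT. No 2 motifs overlap in the windows printed.

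jmjd-1.2 (chrIV:4660417-4660616): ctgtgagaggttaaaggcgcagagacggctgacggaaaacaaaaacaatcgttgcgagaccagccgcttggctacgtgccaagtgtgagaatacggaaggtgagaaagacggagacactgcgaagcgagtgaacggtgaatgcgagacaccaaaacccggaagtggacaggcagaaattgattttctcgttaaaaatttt

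utx-1 (chrX:8556786-8556985): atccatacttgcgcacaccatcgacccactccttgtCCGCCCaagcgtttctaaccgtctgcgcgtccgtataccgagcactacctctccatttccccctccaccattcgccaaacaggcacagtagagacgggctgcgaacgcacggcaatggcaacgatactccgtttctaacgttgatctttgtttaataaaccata

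jmjd-3.1 (chrX:8570151-8570350): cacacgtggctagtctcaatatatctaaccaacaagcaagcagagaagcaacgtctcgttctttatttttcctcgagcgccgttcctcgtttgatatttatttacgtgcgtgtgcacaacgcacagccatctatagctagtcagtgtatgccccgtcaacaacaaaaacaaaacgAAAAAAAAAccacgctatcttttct

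jmjd-2 (chrII:14244634-14244833): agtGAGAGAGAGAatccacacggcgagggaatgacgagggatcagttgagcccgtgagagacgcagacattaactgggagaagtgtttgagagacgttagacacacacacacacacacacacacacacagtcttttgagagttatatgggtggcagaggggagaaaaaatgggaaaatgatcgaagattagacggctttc

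spr-1 (chrV:8130276-8130475): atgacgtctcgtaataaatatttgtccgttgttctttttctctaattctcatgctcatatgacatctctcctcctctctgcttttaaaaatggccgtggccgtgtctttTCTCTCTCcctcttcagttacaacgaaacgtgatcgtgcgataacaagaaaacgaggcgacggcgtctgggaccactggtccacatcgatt

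The utx-1 window held CCGCCC, the spr-1 and jmjd-2 windows held GAGAGAGA, and the jmjd-3.1 window held TTTTTTTT on the reverse strand. The jmjd-1.2 window, which has the strongest signal, held none of the 3. Of the windows not printed, the rcor-1 window upstream of the gene held TTTTTTTT, and the others held none of the 3. The jmjd-2 window also carried 29 bases of alternating C and A close to the summit, and a run of at least this length occurred in 20 of 3423 nuclear optimal windows (0.584%) and in 3 of 19973 windows at gene starts (0.015%). That run was noticed after the sequence was read.

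Over all 10 optimal summits of the listed genes, CCGCCC occurred in 1 window, compared with 11.6% of nuclear optimal windows and 5.13% of gene starts. GAGAGAGA occurred in 2, compared with 13.4% and 1.88%, and TTTTTTTT in 2, compared with 12.7% and 19.1%. These are matches of letters in few windows and are given as a description. GC content ran from 32.5% (lsd-1, the summit nearer to the gene) to 52.5% (utx-1), with a median of 43.8%, against a median of 45.5% at optimal summits and 36.0% at gene starts.

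RBR-2-GFP regions lay upstream of most of these genes. An optimal region was assigned to 7 of the 10 (lsd-1, rcor-1, spr-1, utx-1, jmjd-3.1, jmjd-2 and jmjd-1.2), where 17.4% of all protein-coding genes had one. The other 3, rbr-2, spr-5 and amx-1, had none. There were 10 optimal regions in all, and 3 genes, lsd-1, rcor-1 and jmjd-1.2, carried 2 each, where 2.62% of all genes had 2 or more. The genes were listed with earlier results of these data known, so these counts only describe the list. Of the 10 summits, 9 were intergenic and 260 to 1564 bp upstream of the gene start, and 1 was in an intron of rcor-1.

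Closeness to the gene separated the members further. A summit within 500 bp of an annotated 5′ end was found for 3 genes, rcor-1, utx-1 and jmjd-1.2, against 10.3% of all genes. At lsd-1, spr-1, jmjd-3.1 and jmjd-2 the summits were 545 bp or more upstream. The member's own 5′ end was the nearest protein-coding one for 7 of the 10 summits, and the other 3 were nearer to F29B9.11, snap-1 and nfya-1.

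**Figure D1:**
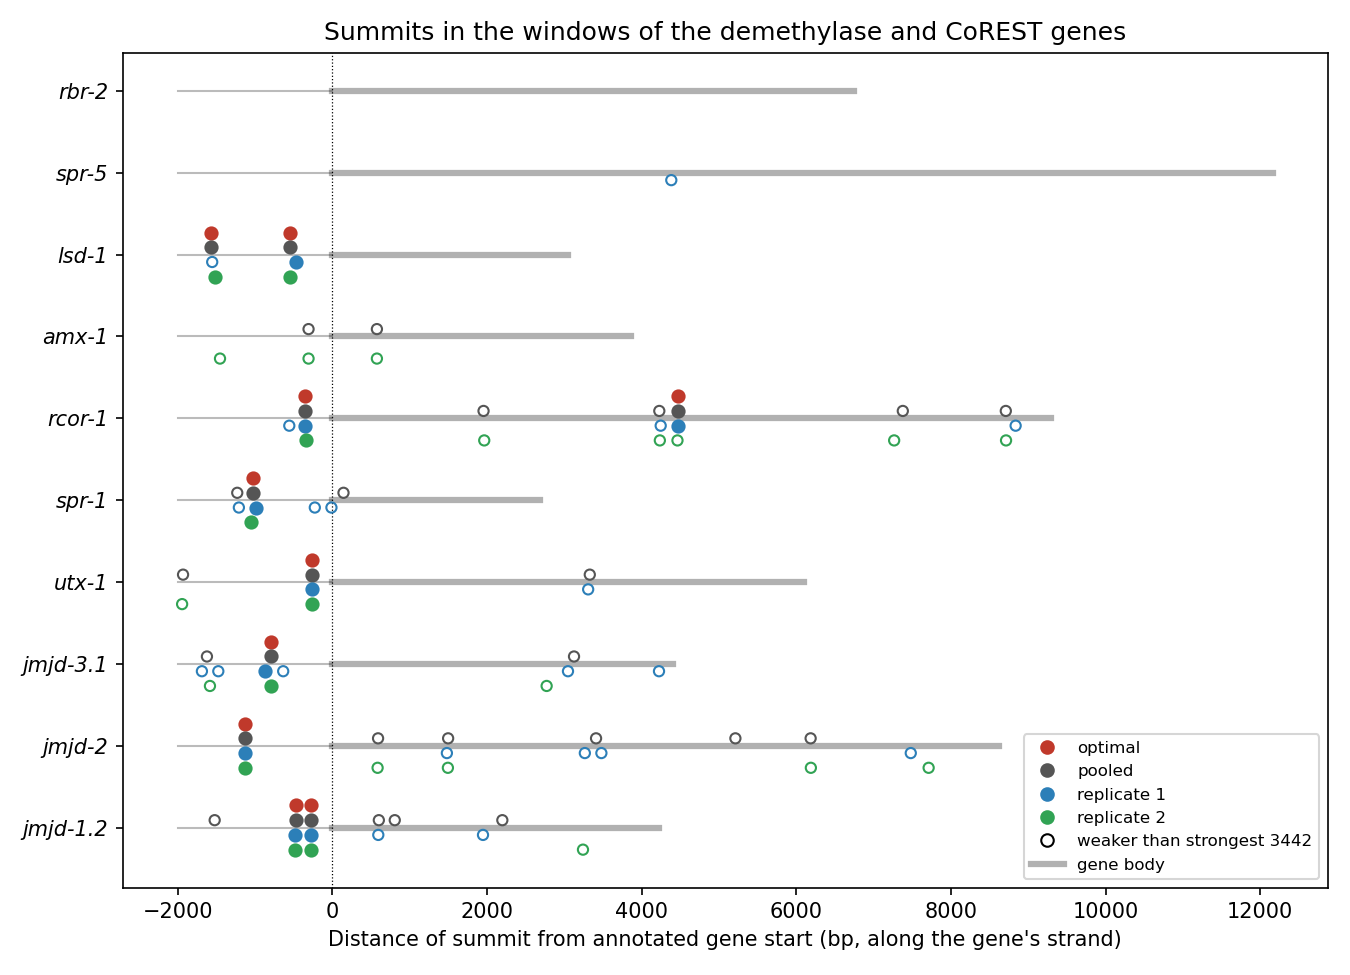
Positions of summits in the windows of the 10 genes, in bp along each gene's strand from the annotated start (dotted line). Thick bars are gene bodies, thin bars the upstream reach, colours the 4 lists, and filled points the 3442 strongest regions of a list. The filled points stand upstream of the start except for the intronic region of rcor-1, rbr-2 carries no point, and spr-5 carries 1 open point from replicate 1.

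The gene windows are long, which matters for such counts. The median window of the listed genes was 7.25 kb, against 4.03 kb for all genes, and 8 of the 10 fell in the longest quartile of windows. In that quartile 27.9% of all genes had an optimal region, and 5 of the 8 listed genes did. The other 2 genes, lsd-1 and spr-1, were in the next quartile, where the share was 16.8%, and both had one. Per length, the listed genes held 1.23 optimal regions per 10 kb of window against 0.401 over all genes, and 3.82 pooled regions against 3.07.

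**Figure D2:**
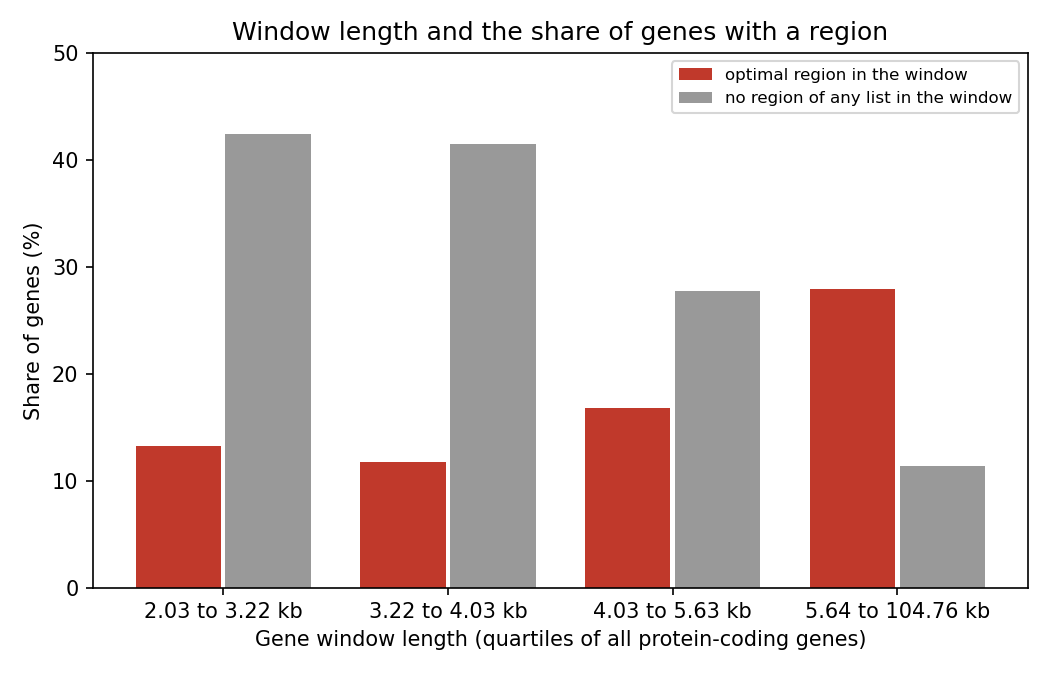
Share of all protein-coding genes (%) with an optimal region (red) and with no region in any of the 4 lists (grey), by quartile of window length in kb. The red share is 13.2% in the shortest windows and 27.9% in the longest, where 8 of the 10 listed genes fall, and the grey share is 42.4% and 11.4%.

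Both replicates placed the regions at the same sites. Each of the 10 optimal summits had a summit of each replicate within 200 bp, and 8 of the 10 were among the 3442 strongest regions of both replicates, as were 2622 of the 3423 nuclear optimal regions (76.6%). By gene, 7 of 10 had a region in the strongest set of both replicates, against 14.5% of all genes. The optimal list was made from the replicates, so none of these matches is independent of it. The share of all optimal regions with a summit of each replicate within 200 bp is not given here. The median signal of the 10 was 118.7, beside 114.2 for the whole list, and 6 of them were above that median.

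**Figure D3:**
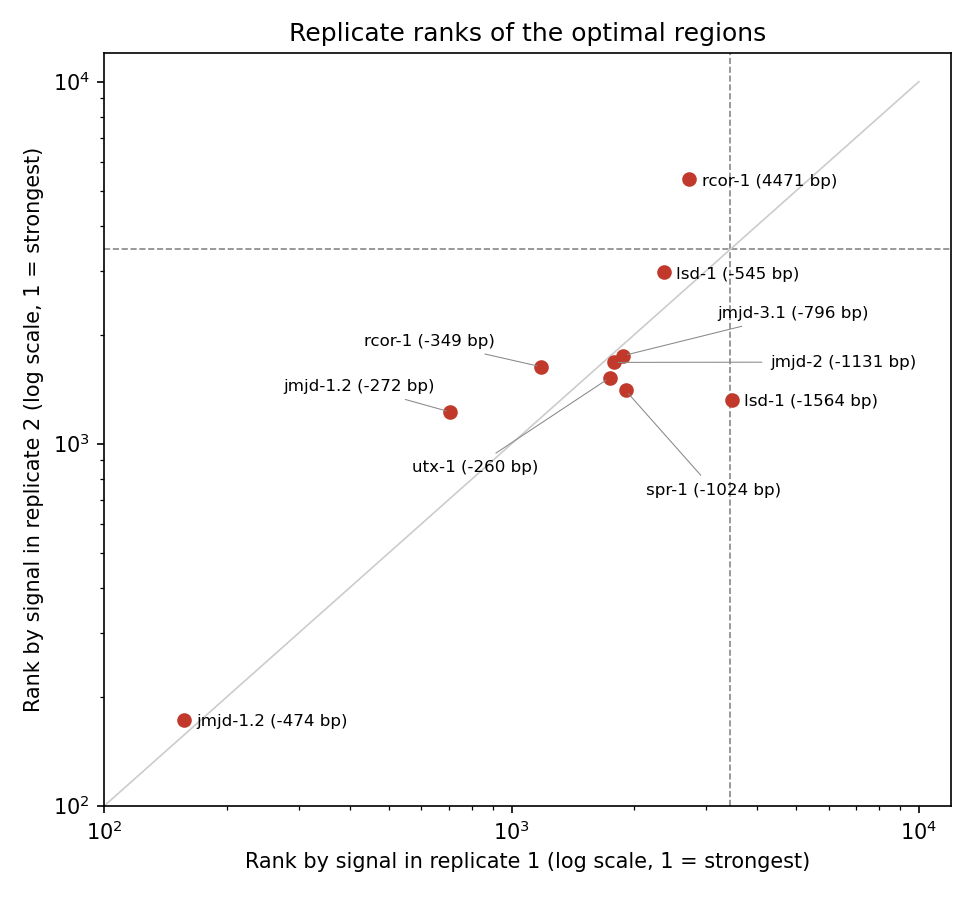
Rank of each of the 10 optimal regions in replicate 1 (x axis) and replicate 2 (y axis), both on a log scale, with the distance of the summit from the gene start. Dashed lines mark rank 3442 and the diagonal equal ranks. The jmjd-1.2 region at 474 bp ranks 157 and 173, 1 lsd-1 region lies past the line in replicate 1, and 1 rcor-1 region past the line in replicate 2.

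Among the Jumonji genes, jmjd-1.2, which encodes a PHF8-type demethylase, had the strongest region of the list. It spanned 4660359 to 4660643 on chromosome IV, with a summit 474 bp upstream of the gene start. Its signal was 400.7 in the optimal list (rank 161), 188.1 in replicate 1 (rank 157) and 209.3 in replicate 2 (rank 173). The ranks place it high in every list. The site lies between divergent genes, and the 5′ end of F29B9.11 was nearer, at 316 bp, so the region could not be assigned to jmjd-1.2 alone.

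A second jmjd-1.2 region, from 4660499 to 4660938, overlapped the first and had its summit nearer to this gene, at 272 bp. Its signal was 169.4 (rank 929), with 93.89 (rank 707) in replicate 1 and 76.87 (rank 1223) in replicate 2. These were the only 2 of the 10 regions of the listed genes among the 1000 strongest of the 3442 optimal regions. Another 4 pooled regions in the window had signals of 15.03 to 20.8, of which 3 were in the gene body.

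The genes for the H3K27 demethylases, utx-1 and jmjd-3.1, are neighbours on chromosome X, on the same strand and 7808 bp apart, and each had its own region. The utx-1 summit, 260 bp upstream (region 8556666 to 8557105), was the closest of the 10 to a gene start and had a signal of 123.2 (rank 1552). Its replicate values were 54.18 (rank 1739) and 66.54 (rank 1520), and both replicate summits lay 1 bp from the optimal one. The jmjd-3.1 summit was 796 bp upstream (region 8570031 to 8570470), in the DNA between both genes, with a signal of 107.7 (rank 1863). In the replicates it had 51.14 (rank 1881) and 60.37 (rank 1751). For both genes the region was in the strongest set of each replicate, with a better rank in replicate 2.

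Weaker pooled regions accompanied both genes. For utx-1 they had signals of 21.16, in an exon of the upstream gene dhhc-14, and 16.53, in an intron of utx-1. For jmjd-3.1 they had signals of 39.63, at 1622 bp upstream, and 17.14, in a coding exon.

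At jmjd-2, the KDM4-type gene on chromosome II, the region ran from 14244514 to 14244953, 1131 bp upstream of the start, with no other protein-coding 5′ end nearer. Signal was 114.3 (rank 1716), and the replicates gave 53.2 (rank 1783) and 61.97 (rank 1677), with summits 1 bp from the optimal one. The body of jmjd-2 held 5 weaker pooled regions with signals of 21.25 to 33.42. No replicate placed any of these among its strongest 3442.

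The LSD1-family genes differed from one another. The gene lsd-1 had 2 optimal regions, and spr-5 and amx-1, its relatives, had none. The lsd-1 region nearer to the gene (chromosome X, 11948079 to 11948518, 545 bp upstream) had a signal of 85.33 (rank 2458). It was in the strongest set of both replicates, with 43.21 (rank 2361) and 41.0 (rank 2971).

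The stronger lsd-1 region (11947060 to 11947499) had its summit 1564 bp upstream and a signal of 107.2 (rank 1874). It lay 442 bp from the 5′ end of nfya-1, which encodes a subunit of the transcription factor NF-Y, and was nearer to that gene. Here the replicates differed: the signal was 32.08 in replicate 1 (rank 3470, just outside its strongest set, whose weakest signal was 32.29) and 73.3 in replicate 2 (rank 1324). The body of lsd-1 held no region in any list.

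The window of amx-1, a gene related to LSD1 on chromosome III, held only weak regions. Pooled signals were 29.09 (rank 11142) at 308 bp upstream and 20.59 (rank 19187) in an intron, 576 bp into the gene. Replicate 2 had regions of 20.27, 14.54 and 10.47, and replicate 1 had none. An optimal summit of signal 114.2 (rank 1725) lay 2066 bp upstream, 66 bp outside the window, and its nearest gene was dpy-27, which encodes a condensin subunit of dosage compensation, at 658 bp. Counting a region by any overlap with the window in place of its summit would assign it to amx-1.

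At spr-5, the LSD1 ortholog on chromosome I and the longest window of the list (14.16 kb), there was no optimal, pooled or replicate 2 region. The 1 region was from replicate 1, in a coding exon, with a signal of 9.007 (rank 25918 of 26742), close to the minimum of that list (8.792). An optimal summit of signal 133.8 (rank 1368) lay 3520 bp upstream of the spr-5 start. It was nearest to eif-3.J, a translation initiation factor gene on the same strand that ends 94 bp before spr-5.

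Both CoREST genes had an optimal region upstream. At rcor-1, on chromosome I, the region from 26910 to 27349 had its summit 349 bp upstream and a signal of 135.1 (rank 1351). The replicates gave 70.16 (rank 1181) and 63.3 (rank 1631). After the jmjd-1.2 regions this was the strongest of the list.

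The intronic rcor-1 region (22090 to 22529) was 4471 bp into the gene and 1183 bp upstream of an internal transcript 5′ end. Its signal of 66.6 (rank 3353) was close to the weakest optimal signal, 65.15. It was in the strongest set of replicate 1 (38.59, rank 2730) and outside that of replicate 2 (26.99, rank 5369). A pooled region that overlapped it, with its summit at 22553, had a signal of 52.7 (rank 4477), below the optimal list. That region was the strongest of the members' pooled regions that were not optimal.

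The gene spr-1, whose mutation suppresses the defects of a presenilin mutant, had its region on chromosome V from 8130156 to 8130595, with a summit 1024 bp upstream. Signal was 123.0 (rank 1558), with 50.75 (rank 1904) in replicate 1 and 70.39 (rank 1403) in replicate 2. The region lay in the DNA shared with snap-1, the gene of a vesicle fusion factor on the opposite strand, whose 5′ end was nearer, at 235 bp. Assignment to spr-1 alone was therefore not possible either. Weaker pooled regions had signals of 29.18, also near snap-1, and 17.51, inside spr-1.

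Including weak regions, some of which may be background, 8 of the 10 genes had a pooled region, against 56.3% of all genes. Their windows held 31 pooled regions, of which 21 were not optimal, with signals of 14.55 to 52.7. Of these 21, 16 were inside the gene. Gene bodies also make up most of the length of these windows, whose median is 7.25 kb with a 2 kb upstream reach. No share by length was computed. For these weaker regions, a summit within 200 bp was present in both replicates for 5, in 1 for 12 and in neither for 4. The 5 include the spr-1 region of signal 29.18, whose replicate 2 summit is also the one matched to the optimal spr-1 region. The 10 optimal summits all had a summit within 200 bp in both replicates, but the optimal list was itself made by agreement between the replicates. The weaker regions are therefore not a like comparison, and the share over all weaker pooled regions is not given here. The deposited −log10 q-value was 2.924 for every optimal region, 2.339 for the weaker rcor-1 region, 1.137 for that of jmjd-3.1 and at most 0.689 for the other weaker regions.

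The gene of the tagged protein itself had no region. The window of rbr-2 on chromosome IV (gene 10920070 to 10926817, 8748 bp with its upstream reach) held no summit in any of the 4 lists, as for 30.8% of all genes. Among genes in the longest quartile of windows, where rbr-2 falls, that share was 11.4%. It was the 1 listed gene of which this was true. The labels describe an insertion that targets rbr-2 in this line, and whether it affects region calls there was not tested. The absence of a region therefore does not show an absence of binding.

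The nearest summits to the rbr-2 start were 50943 bp away in the optimal list, 30268 bp in the pooled list, 25805 bp in replicate 1 and 30443 bp in replicate 2, all upstream. The distance between the flanking pooled summits, at 10889802 and 10973170, was 83.4 kb, where the median distance between neighbouring pooled summits was 1.39 kb. In replicate 1 the flanking summits were at 10894265 and 10962195, 67.9 kb apart, and in replicate 2 at 10889627 and 10972224, 82.6 kb apart. Inside the replicate 1 interval no list had a summit, while nearer to its ends the pooled stretch did hold replicate summits. Flanking optimal summits were 157.1 kb apart, against a median of 14.92 kb.

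Such stretches are few but hold many genes. The pooled stretch ranked 32 by length of 29974, with 24 protein-coding genes entirely inside it, among them lgg-2, lsm-7 and dnc-1, the last of which overlaps rbr-2. Of all protein-coding gene starts between summits, 1129 of 19950 (5.66%) lay in a pooled stretch at least as long. The shares were 15.6% in the optimal list, 3.89% in replicate 1 and 2.7% in replicate 2. Of the other listed genes, spr-5 had the longest pooled distance, 20.3 kb, followed by lsd-1 with 14.4 kb. Long distances in single lists also occurred at other members. In replicate 2 the distance at spr-1 was 51.9 kb (rank 81 of 28697, 14 genes inside), and in the optimal list it was 90.2 kb at jmjd-2, 89.8 kb at spr-1 and 69.8 kb at lsd-1. These distances were chosen for description after the absence of regions at rbr-2 had been seen, and the cause was not tested.

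**Figure D4:**
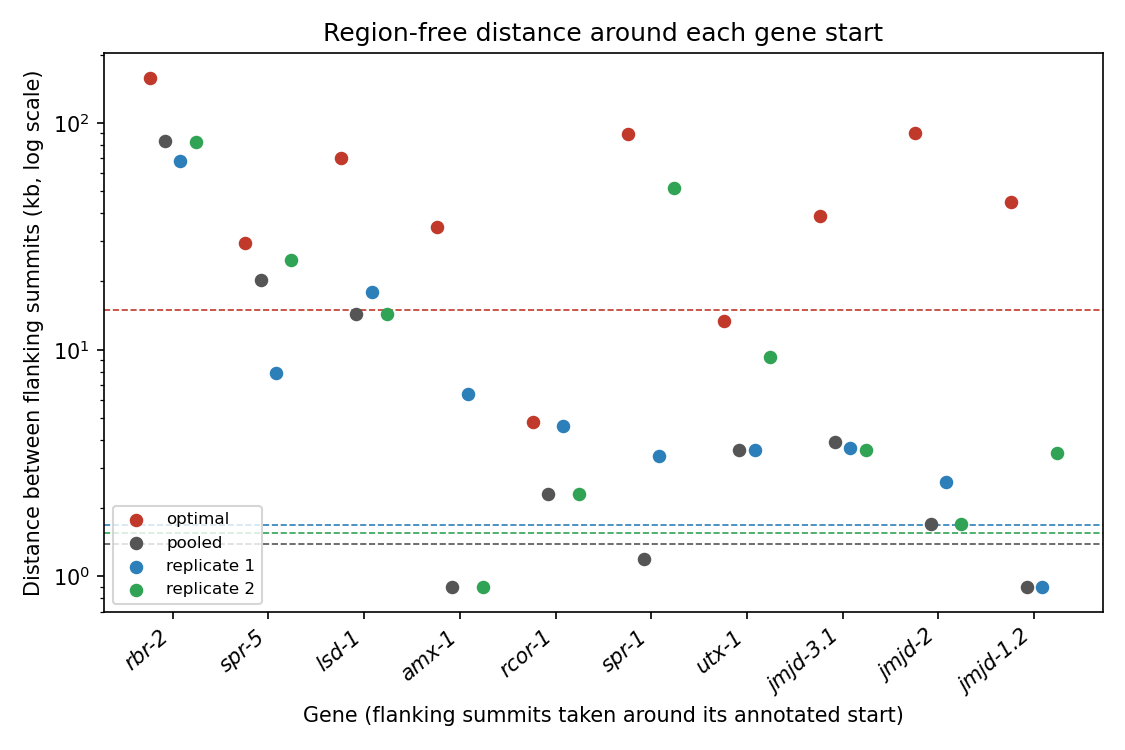
Distance in kb (log scale) between the summits that flank each gene's start, in the optimal, pooled and replicate lists, with dashed lines at each list's median distance. For rbr-2 the 4 distances, 67.9 to 157.1 kb, are the longest of the 10 genes in each list, and the pooled distances of the others are at most 20.3 kb.

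By chromosome, the 3 listed genes on X (lsd-1, utx-1 and jmjd-3.1) all had an optimal region, as did 4 of the 7 on autosomes. Over all genes these shares were close to each other, 18.1% on X and 17.3% on autosomes.

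Related genes outside the list were read from fixed lists. Of 22 such genes, 9 had an optimal region and 19 a pooled one, where 17.4% and 56.3% of all genes did, and 27.9% of genes in the longest quartile of windows had an optimal one. No test was made of these counts, and they rest on few genes. In the Jumonji family 2 of 7 had one: jhdm-1, a KDM2-type gene (signal 251.8, rank 440), and jmjc-1 (69.34, rank 3187). Of presenilin-suppressor, deacetylase and partner genes 6 of 11 had one. The strongest were at mrg-1, a chromodomain gene (247.4, rank 457, nearer to spcs-2), and at spr-2 (169.9, rank 924).

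The others were lin-40, an MTA-type gene (125.6), the deacetylase gene hda-1 (101.3, nearer to ril-1), the corepressor gene sin-3 (76.41) and spr-4 (71.86). Of the presenilin genes, sel-12 had a region of signal 67.5 (rank 3291), close to the weakest optimal signal, and hop-1 had a pooled region only. Neither amx-2 nor amx-3 had an optimal region. The region of jhdm-1 was thus stronger than those of the listed genes other than the first of jmjd-1.2.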

How the data were processed

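Regions came from the ce11 lists of 2 biological replicates. As the deposited descriptions state, the authors called replicate lists against a control, the pooled list from both replicates, and the optimal list from these by irreproducible discovery rate. For the aligner, peak caller, versions and threshold, details are not given in the sources used here. Deposited signal is the authors' strength of each region, used to rank and describe regions within its list. The deposited −log10 q-value was only described. The ce10 lists were not used here.

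Summits were assigned with Python 3.11.15, pandas 2.3.3 and numpy 2.4.6 to Ensembl release 115 genes, to a window of the gene plus 2 kb upstream of any 5′ end. Summits within 200 bp counted as the same site, and the strongest 3442 regions of each replicate were compared. Shares of all 19973 nuclear protein-coding genes were computed in the same way. Mitochondrial regions stayed in the ranks. Sequence came from RefSeq. The assignment was tested on simulated data.

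The members and lists were chosen with earlier results of these data known. All members and their optimal regions are named. Of the related genes those with an optimal region are named, and hop-1, amx-2 and amx-3 were added after their values were seen. Distances between flanking summits, quartiles of window length and the alternating run were also chosen after seeing the data. With 1 group, no test was made.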

Additional observations from a re-analysis of the deposited data

How the results depend on the processing

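The number of listed genes with an optimal region, 7 with the 2 kb reach, was 5 with 1 kb, 3 with 500 bp, 6 with the nearest gene only, 8 by overlap, 5 in the stronger 50% of the list and 7 without either replicate. Genes in the strongest set of both replicates fell from 7 to 4 with a 500 bp reach. Genes with a summit near a 5′ end numbered 3 within 500 bp, 0 within 250 bp and 5 within 1000 bp. Regions per 10 kb, 1.23 with the main settings, were 0.984 with 1 kb, 0.756 with 500 bp, 4.51 in upstream sequence only, 1.36 by overlap, 0.863 with the nearest gene only, 0.739 in the stronger 50% and 1.11 without either replicate. Shares of all genes and their density were computed only for the main settings, so none stands beside these alternatives. In windows of 100 bases, CCGCCC occurred in 0, GAGAGAGA in 1 and TTTTTTTT in 0, where 6.84%, 7.36% and 4.88% of nuclear optimal windows held them. The distance around rbr-2 was 82.6 kb in the list of replicate 2 alone and 67.9 kb in that of replicate 1 alone. In all, 28 alternatives of the main results, some of them already given, kept a count within 1.5 times or the density within the spread between replicates, and 15 did not. For the counts of single genes and the distance around rbr-2, 75 alternatives did and 17 did not. Both replicates gave the same density, 1.11, so that spread was 0 and any change in density counted as moved. No paired analysis was possible because the labels give 1 group. Depth is unknown, regions below the weakest signal of each list are not listed, and 2 replicates limit the precision of every signal and rank.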
